A study of Mus musculus with 12 samples.

Results

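The 10 genes described here encode enzymes that use mevalonate products for purposes other than sterols: Ggps1, Pdss1, Pdss2, Coq2, Dhdds, Fnta, Fntb, Pggt1b, Icmt and Rce1. They were chosen by name, as the rows of the deposited count table that carry these symbols, and the rule itself uses no measured value, although earlier results of these data were known when the genes were chosen. All 10 were among the 17210 genes of the table, and all 10 passed the filter on low counts that left 11177 genes for testing. Their estimated counts ran from 131.3 to 1995 per library.

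The mevalonate pathway ends in farnesyl diphosphate, from which squalene and then cholesterol are made. The same intermediate also feeds several non-sterol branches. Geranylgeranyl diphosphate and farnesyl diphosphate are attached to cysteines near the C-terminus of small GTPases, lamins and other proteins, which anchors them in membranes. Long polyprenyl chains become dolichol, the lipid carrier of N-glycosylation, or the tail of ubiquinone, the electron carrier of the respiratory chain. SREBP2 is the transcription factor known for driving the sterol-synthesis genes, and GATA1 is the master transcription factor of red cell development.

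The data came from G1E-ER4, a mouse erythroid cell line without a GATA1 of its own, in which a fusion of GATA1 with the estrogen receptor's ligand-binding domain is activated by β-estradiol (EST). Cells were given retrovirus for 24 h and then EST, or no EST, for 6 h. The 4 groups of 3 libraries were empty virus (Vector), active SREBP2 (SREBP2), empty virus with EST (Vector+EST) and active SREBP2 with EST (SREBP2+EST). Active SREBP2 was a fragment, residues 1 to 468 of the protein. The question was how EST and active SREBP2 each changed these genes, and whether SREBP2 altered the response to EST. The cells of every group carry the GATA1 fusion, and its activity in SREBP2 cells without EST was not measured in these data. The study reports, from immunoblots, that SREBP2 overexpression brought the fusion into the nucleus without EST. The sample protocol and the study's methods for RNA sequencing give 500 nM EST, and the design text gives 200 nM. The labels name strain C57BL/6J and call the cells embryonic stem cells. The whole series rests on 1 line, and the labels do not say whether the libraries of a group came from separate cultures, while the study speaks of independent experiments for its figures in general. The p-values measure the spread between these libraries, part of which may be technical.

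Total counts lay between 18700959 and 19152281 per library. Srebf2 stood at 361 ± 8.32 CPM (counts scaled to a common library size, after TMM scaling; mean ± SD, n = 3) in Vector, 816 ± 20.1 in SREBP2, 441 ± 13.0 in Vector+EST and 808 ± 6.66 in SREBP2+EST. How far reads of the introduced gene entered this mouse row is not known. Gata1, a row that reads of the fusion could enter, stood at 1769 ± 17.0 CPM in Vector, 557 ± 40.2 in SREBP2, 452 ± 28.5 in Vector+EST and 519 ± 54.7 in SREBP2+EST. The line has no GATA1 of its own, so this row is not read as the level of a native gene, and the source of its reads was not tested. The 14 erythroid markers summed to between 10915 and 11387 CPM in Vector and between 6900 and 8189 CPM in the other groups, while the 4 embryonic stem cell markers in the table summed to at most 0.650 CPM. The erythroid sum includes the Gata1 row and does not show how each marker moved, so its fall is not read as a loss of erythroid identity. Summed stromal markers were between 19.2 and 19.9 CPM in Vector, between 4.02 and 5.42 CPM in SREBP2 and between 18.6 and 35.1 CPM in SREBP2+EST, and in Vector+EST they were 4.74, 4.70 and 36.3 CPM, with library 5 far from the other two. Summed neural markers were between 9.01 and 10.6 CPM in Vector and at most 4.60 CPM elsewhere, and summed megakaryocyte markers were between 11.4 and 12.7 CPM in Vector+EST and between 38.6 and 61.7 CPM elsewhere. Myeloid and lymphoid markers summed to at most 4.69 and 1.41 CPM. The part of these markers in the results was not tested. On the first principal component, which held 65.3% of the variance, the Vector libraries stood apart from the other 9, and SREBP2 library 1 and SREBP2+EST library 1 each lay nearer to the other group than to their own. Whether SREBP2 library 1 and SREBP2+EST library 1 were exchanged was not tested.

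Most of the 10 genes changed when either EST or active SREBP2 was given alone, and the changes went in both directions. With EST in Vector cells, 6 of the 10 passed the test: Ggps1, Fntb, Pggt1b and Icmt rose, and Pdss1 and Dhdds fell. With SREBP2 and no EST, 7 passed: Ggps1, Fntb, Pggt1b and Icmt rose, and Pdss1, Dhdds and Fnta fell. These counts have to be read against the whole table, of which 70.6% was called for EST in Vector cells and 71.5% for SREBP2 without EST (edgeR's quasi-likelihood test, adjusted p under 0.05). By direction, 35.2% of all genes were higher and 35.5% lower with EST, and 37.7% were higher and 33.8% lower with SREBP2. The shares of the 10 genes were near this background. The median log2 fold change of the 10 was -0.02 for EST in Vector cells, where it was 0.01 over all tested genes, and -0.05 for SREBP2 without EST, where it was 0.03 over all tested genes. Both comparisons used the Vector libraries as controls, so their similar directions for these genes are not independent of each other.

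Where EST was present in both groups, differences with active SREBP2 were small for these 10 genes. A single gene of the 10, Dhdds, passed the test, against 21.9% of all tested genes (14.0% higher and 7.94% lower; with library totals as the only scaling, 1292 genes were higher and 1768 lower), and the 10 log2 fold changes lay between -0.16 and 0.16 with a median of -0.01 (all tested genes, median -0.00). With EST in cells that already had active SREBP2, none of the 10 passed the test. In that comparison edgeR called 0% of all genes, 4.53% had an unadjusted p under 0.05, and DESeq2 called 12 genes. Without SREBP2 library 1 and SREBP2+EST library 1, the libraries that lay nearer to the other group, edgeR called 1567 genes, and still 0 of the 10.

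**Figure D1:**
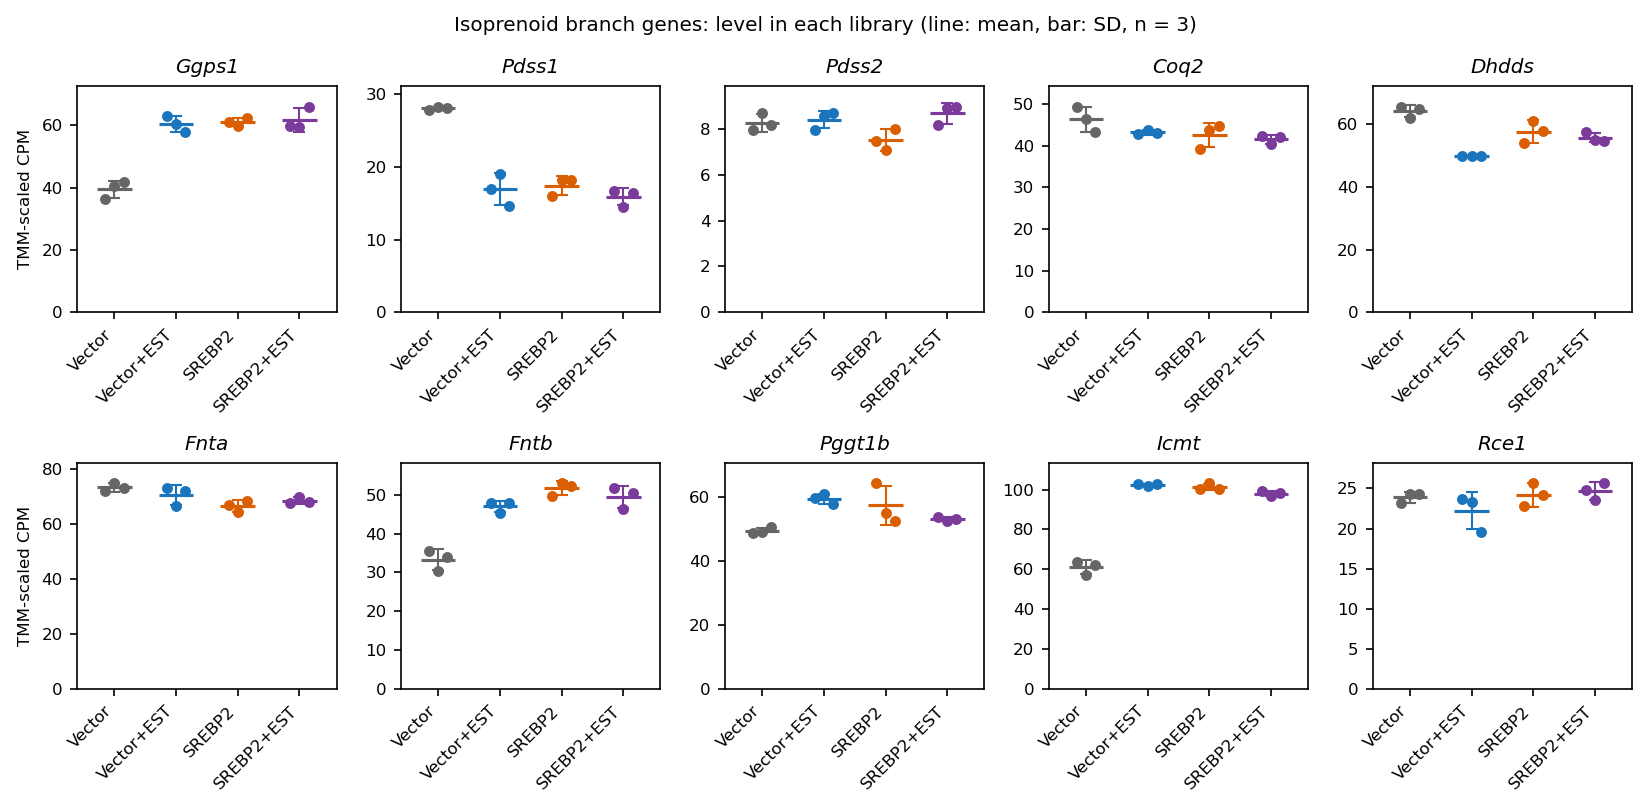
Level of each of the 10 genes in each library, in TMM-scaled CPM on axes that start at 0, by group; points are libraries, the line is the group mean and the bar is the SD (n = 3). For Ggps1, Fntb, Pggt1b and Icmt the Vector libraries lie under all others, for Pdss1 they lie above all others, and Pdss2 and Rce1 overlap between Vector and each other group.

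Ggps1 makes geranylgeranyl diphosphate from farnesyl diphosphate and so supplies geranylgeranylation. Its level was 36.3, 40.3 and 41.7 CPM in the Vector libraries 1, 4 and 5, and 63.0, 60.5 and 57.9 CPM in the Vector+EST libraries 1, 3 and 5. The SREBP2 libraries 1, 3 and 5 read 61.2, 59.7 and 62.3 CPM, and the SREBP2+EST libraries 1, 2 and 5 read 59.7, 59.3 and 66.0 CPM. The Vector libraries thus stood below the other 9, which overlapped one another. On the log2 scale Ggps1 rose by 0.62 ± 0.06 with EST in Vector cells (± SE throughout, edgeR adjusted p = 1.11e-07) and by 0.63 ± 0.06 with SREBP2 without EST (adjusted p = 8.08e-08). With EST in both groups the difference was 0.03, with a 95% interval from -0.09 to 0.15. The gene lies on the minus strand at chr13:14049790-14063566 (GRCm38.p6, RefSeq), and 257 of its annotated exon bases (5.44%) are also exon bases of Arid4b on the other strand. Arid4b had log2 fold changes of 0.58 and 0.53 in the same 2 comparisons, and the sources used here do not say whether strand was used in counting.

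Farnesyltransferase and geranylgeranyl transferase I share an α subunit, encoded by Fnta, and differ in their β subunits, encoded by Fntb and Pggt1b. Fnta (chr8:25998688-26015610, minus strand) varied little, at 71.8, 74.9 and 73.2 CPM in Vector and 73.1, 66.4 and 72.0 CPM in Vector+EST. It read 66.9, 64.3 and 68.5 CPM in SREBP2 and 67.8, 69.8 and 67.9 CPM in SREBP2+EST. The SREBP2 libraries stood just below the Vector ones, and the fall of 0.14 ± 0.05 on the log2 scale passed the test (edgeR adjusted p = 0.0121), although without SREBP2 library 3 it did not (log2 fold change -0.12, adjusted p = 0.0578).

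Fntb, the β subunit of farnesyltransferase (chr12:76837400-76921412, plus strand), read 35.5, 30.4 and 34.0 CPM in Vector and 47.8, 45.4 and 47.8 CPM in Vector+EST. It read 49.7, 53.0 and 52.3 CPM in SREBP2 and 51.8, 46.4 and 50.4 CPM in SREBP2+EST. The Vector libraries were lowest, and no library of another group reached them. The rise was 0.50 ± 0.06 with EST (edgeR adjusted p = 2.24e-06) and 0.63 ± 0.06 with SREBP2 (adjusted p = 1.16e-07), a 1.41-fold and a 1.55-fold difference. Churc1, on the same strand, shares 257 exon bases (6.45% of those of Fntb) and had log2 fold changes of 0.17 and 0.08.

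Pggt1b, the β subunit of geranylgeranyl transferase I (chr18:46235344-46281089, minus strand), read 48.8, 49.1 and 50.5 CPM in Vector and 59.7, 60.8 and 57.7 CPM in Vector+EST. It read 64.3, 55.1 and 52.5 CPM in SREBP2 and 53.7, 52.3 and 53.1 CPM in SREBP2+EST. The SREBP2 libraries were the most spread of these, with library 1 highest. Pggt1b rose by 0.26 ± 0.06 with EST in Vector cells (edgeR adjusted p = 0.00114) and by 0.21 ± 0.06 with SREBP2 (adjusted p = 0.00557). The second rise was smaller without SREBP2 library 1 but still passed (log2 fold change 0.12, adjusted p = 0.0309). It did not pass without both SREBP2 library 1 and SREBP2+EST library 1 (0.08, adjusted p = 0.123) or without Vector library 4 (0.17, adjusted p = 0.0565).

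The balance of the transferase subunits can be read within a library, where scaling cancels. The ratio of Fntb to Fnta counts was 0.455 ± 0.0454 in Vector (mean ± SD, n = 3, as for all ratios), 0.777 ± 0.0421 in SREBP2, 0.668 ± 0.0155 in Vector+EST and 0.723 ± 0.0528 in SREBP2+EST. Single libraries lay between 0.405 and 0.495 in Vector, and the lowest of any other library was 0.654. The ratio of Pggt1b to Fnta was 0.675 ± 0.0170 in Vector, 0.861 ± 0.0971 in SREBP2, 0.844 ± 0.0620 in Vector+EST and 0.774 ± 0.0221 in SREBP2+EST. For both ratios the Vector libraries lay below the other groups without overlap, and the two-sided exact permutation p was 0.1 against Vector+EST and against SREBP2, the smallest that 3 against 3 can give (0.15 after adjustment over 24 ratio tests).

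After a prenyl group is attached, Rce1 cleaves the last residues of the protein and Icmt methylates the new C-terminus, both at the endoplasmic reticulum. Icmt (chr4:152297214-152307126, plus strand) had the largest rises of the 10 genes. It read 63.7, 57.2 and 62.3 CPM in Vector and 102.8, 101.9 and 102.9 CPM in Vector+EST. It read 100.4, 103.3 and 100.4 CPM in SREBP2 and 99.1, 96.8 and 98.1 CPM in SREBP2+EST. The highest Vector library (63.7 CPM) was far below the lowest library of any other group (96.8 CPM). The log2 fold change was 0.75 ± 0.04 with EST in Vector cells (edgeR adjusted p = 1.95e-10) and 0.73 ± 0.04 with SREBP2 (adjusted p = 2.34e-10), which is 1.68-fold and 1.66-fold. With EST in both groups it was -0.07, with a 95% interval from -0.15 to 0.02.

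Rce1 (chr19:4622593-4625645, minus strand) read 23.1, 24.3 and 24.3 CPM in Vector and 23.7, 23.4 and 19.6 CPM in Vector+EST. It read 22.8, 25.7 and 24.1 CPM in SREBP2 and 24.8, 23.5 and 25.7 CPM in SREBP2+EST. All groups overlapped, and Rce1 passed no test, with log2 fold changes between -0.11 and 0.15 and edgeR adjusted p-values of 0.172 and above. The ratio of Icmt to Rce1 counts was 2.56 ± 0.205 in Vector, 4.20 ± 0.196 in SREBP2, 4.65 ± 0.525 in Vector+EST and 3.98 ± 0.148 in SREBP2+EST. It did not overlap between Vector and either singly treated group (exact permutation p = 0.1, the smallest possible).

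Dhdds encodes the catalytic subunit of the cis-prenyltransferase that makes the dolichol backbone, and Nus1 encodes its partner. Dhdds (chr4:133969028-134000957, minus strand) read 65.6, 62.0 and 64.7 CPM in Vector and 49.9, 49.7 and 49.8 CPM in Vector+EST. It read 54.0, 61.1 and 57.8 CPM in SREBP2 and 57.4, 55.0 and 54.7 CPM in SREBP2+EST. Vector stood highest, Vector+EST lowest, and both SREBP2 groups lay between them and overlapped each other. Dhdds fell by 0.37 ± 0.05 with EST in Vector cells (edgeR adjusted p = 5.49e-06) and by 0.15 ± 0.05 with SREBP2 (adjusted p = 0.00978). Under EST, SREBP2 cells were 0.16 ± 0.05 higher than Vector cells (adjusted p = 0.0287), which is 1.12-fold, and without EST they were lower.

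That small rise of Dhdds was the only call of the 10 genes under EST, and it did not hold in several other fits. DESeq2 gave 0.15 (adjusted p = 0.0828), and the adjusted p was 0.0763, 0.0800 and 0.0595 without Vector+EST library 1, 3 or 5 and 0.0849 and 0.0511 without SREBP2+EST library 1 or 2. Under DESeq2 the gene called was Pggt1b instead (log2 fold change -0.18, adjusted p = 0.0462, against -0.16 and 0.0699 in edgeR). The same exchange was seen with RLE size factors (adjusted p = 0.0541 for Dhdds and 0.0419 for Pggt1b) and with library totals (0.0790 and 0.0278). Nus1 read 44.7 ± 3.06 CPM in Vector and between 40.8 and 43.5 CPM on average in the other groups, with adjusted p-values of 0.355 and above in the 3 comparisons with SREBP2 or EST added singly or SREBP2 added under EST. The ratio of Dhdds to Nus1 counts was 1.44 ± 0.136 in Vector, 1.15 ± 0.0864 in Vector+EST, 1.35 ± 0.107 in SREBP2 and 1.37 ± 0.0635 in SREBP2+EST.

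In the ubiquinone branch, Pdss1 and Pdss2 form the synthase of the long tail, and Coq2 joins that tail to the ring. Pdss1 (chr2:22894382-22940266, plus strand) had the largest falls of the 10 genes. It read 27.9, 28.3 and 28.1 CPM in Vector and 17.0, 19.1 and 14.7 CPM in Vector+EST. It read 16.0, 18.2 and 18.2 CPM in SREBP2 and 16.7, 14.5 and 16.5 CPM in SREBP2+EST. Outside Vector the highest library was at 19.1 CPM, and those groups overlapped. Pdss1 fell by 0.73 ± 0.09 with EST in Vector cells (edgeR adjusted p = 1.03e-06) and by 0.69 ± 0.09 with SREBP2 (adjusted p = 1.98e-06), to 0.602 and 0.621 of the Vector level. Its exons share 194 bases (4.57%) with Abi1 on the other strand, whose log2 fold changes were 0.60 and 0.76, opposite in sign.

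Its partner Pdss2 (chr10:43218248-43464882, plus strand) read 7.95, 8.71 and 8.19 CPM in Vector and 7.99, 8.57 and 8.70 CPM in Vector+EST. It read 7.47, 7.09 and 8.03 CPM in SREBP2 and 8.18, 8.94 and 8.99 CPM in SREBP2+EST. The libraries of SREBP2+EST lay above those of SREBP2, a log2 difference of 0.21 ± 0.09 with an unadjusted p of 0.0331 in edgeR's test and an adjusted p of 0.919, in a comparison where 7.43% of all genes did not overlap. The ratio of Pdss1 to Pdss2 counts was 3.40 ± 0.135 in Vector, 2.32 ± 0.216 in SREBP2, 2.02 ± 0.286 in Vector+EST and 1.84 ± 0.207 in SREBP2+EST. All 3 Vector libraries (3.25 to 3.51) were above the highest other library (2.56).

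Coq2 (chr5:100654723-100674288, minus strand) read 49.4, 46.4 and 43.4 CPM in Vector and 42.8, 43.9 and 43.0 CPM in Vector+EST. It read 39.3, 43.9 and 44.7 CPM in SREBP2 and 42.3, 40.4 and 42.1 CPM in SREBP2+EST. The lowest Vector library overlapped both singly treated groups. Its log2 fold changes of -0.10 and -0.12 did not pass the test (edgeR adjusted p = 0.128 and 0.0731), but both were called in some alternatives. Without Vector library 5 they were -0.19 and -0.21 (adjusted p = 0.0136 and 0.00756). The second also passed without Vector library 4, SREBP2 library 5 or SREBP2+EST library 2 (adjusted p = 0.0446, 0.0410 and 0.0484), and with RLE size factors, library totals or at least 10 counts in every library (0.0346, 0.00933 and 0.0267). The first also passed with at least 10 counts in every library (0.0410) and without both SREBP2 library 1 and SREBP2+EST library 1 (0.0129).

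**Figure D2:**
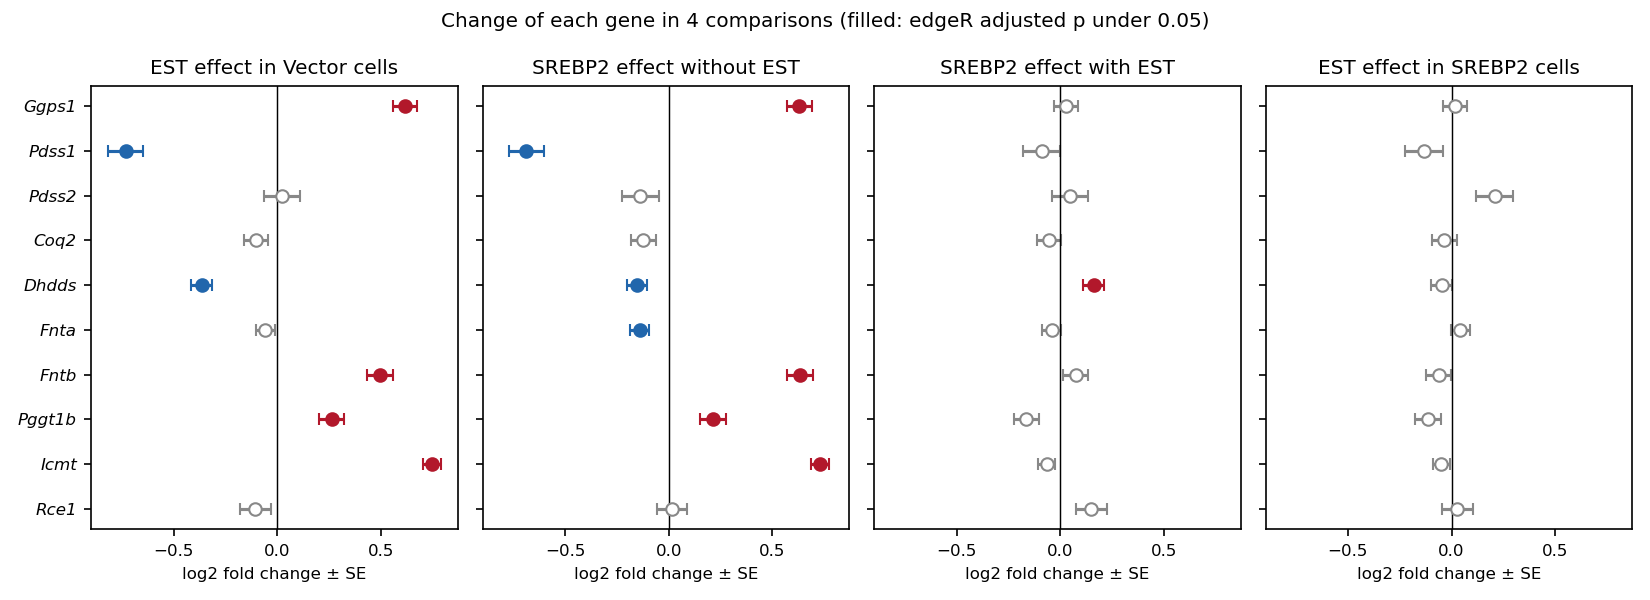
Log2 fold change of each of the 10 genes in 4 comparisons, with bars of 1 SE on a common axis; filled points have an edgeR adjusted p under 0.05 (red higher, blue lower). The 2 left panels share the Vector libraries and span -0.73 to 0.75, and the 2 right panels span -0.16 to 0.21, with Dhdds (0.16) the only filled point.

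Whether the response to EST itself differed between SREBP2 and Vector cells was tested as an interaction. It passed for 6 of the 10 genes, Ggps1, Fntb, Pggt1b, Icmt, Pdss1 and Dhdds, against 59.0% of all tested genes (29.8% higher and 29.2% lower). For Icmt the EST effect was 0.80 ± 0.06 lower on the log2 scale in SREBP2 cells (edgeR adjusted p = 1.24e-08), and for Pdss1 it was 0.60 ± 0.12 higher (adjusted p = 0.000626). In SREBP2 cells the EST effects themselves were near 0, with 95% intervals from -0.11 to 0.14 for Ggps1, from -0.14 to 0.04 for Icmt and from -0.33 to 0.06 for Pdss1.

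The enzymes from acetyl-CoA to farnesyl diphosphate, and on to squalene epoxide, are given here for the same libraries as a comparison. Fdft1 and Sqle of this list act after farnesyl diphosphate, on the sterol side, and so are not upstream of the 10 genes. All 10 of the listed mevalonate to squalene enzymes rose with SREBP2 without EST, by log2 fold changes from 0.61 to 2.49 with a median of 1.35, and all 10 rose under EST, from 1.04 to 2.67 with a median of 1.94. With EST in Vector cells none rose and 9 fell, with a median of -0.45. Of all tested genes, 37.7% were higher with SREBP2 without EST, 14.0% were higher with SREBP2 under EST and 35.5% were lower with EST in Vector cells. Mvd, which makes isopentenyl diphosphate, rose by 2.17 ± 0.05 and 2.67 ± 0.05 with SREBP2, and Pmvk, the kinase before it, by 2.49 ± 0.06 and 2.67 ± 0.06. Hmgcs1, the synthase of HMG-CoA, fell by 0.82 ± 0.04 with EST in Vector cells.

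Fdps makes the farnesyl diphosphate that every one of these branches consumes, and Idi1 makes its allylic precursor. Fdps averaged 319.5 ± 4.19 CPM in Vector (SD, n = 3), 877 ± 57.6 in SREBP2, 224 ± 8.98 in Vector+EST and 919.8 ± 26.5 in SREBP2+EST. Its log2 fold change was -0.51 ± 0.05 with EST in Vector cells, 1.46 ± 0.05 with SREBP2 and 2.04 ± 0.05 with SREBP2 under EST, and those of Idi1 were -0.96, 0.97 and 1.87, all past the test. The next enzyme, Ggps1, can be set against Fdps within each library. The ratio of Ggps1 to Fdps counts was 0.112, 0.127 and 0.132 in Vector and 0.277, 0.282 and 0.250 in Vector+EST. It was 0.0743, 0.0685 and 0.0664 in SREBP2 and 0.0639, 0.0666 and 0.0705 in SREBP2+EST. Vector+EST was 2.18-fold above Vector and SREBP2 was below Vector, both without overlap (exact permutation p = 0.1 each, the smallest possible). Under EST, the ratio in SREBP2 cells was 0.248 of that in Vector cells, again without overlap (exact permutation p = 0.1).

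**Figure D3:**
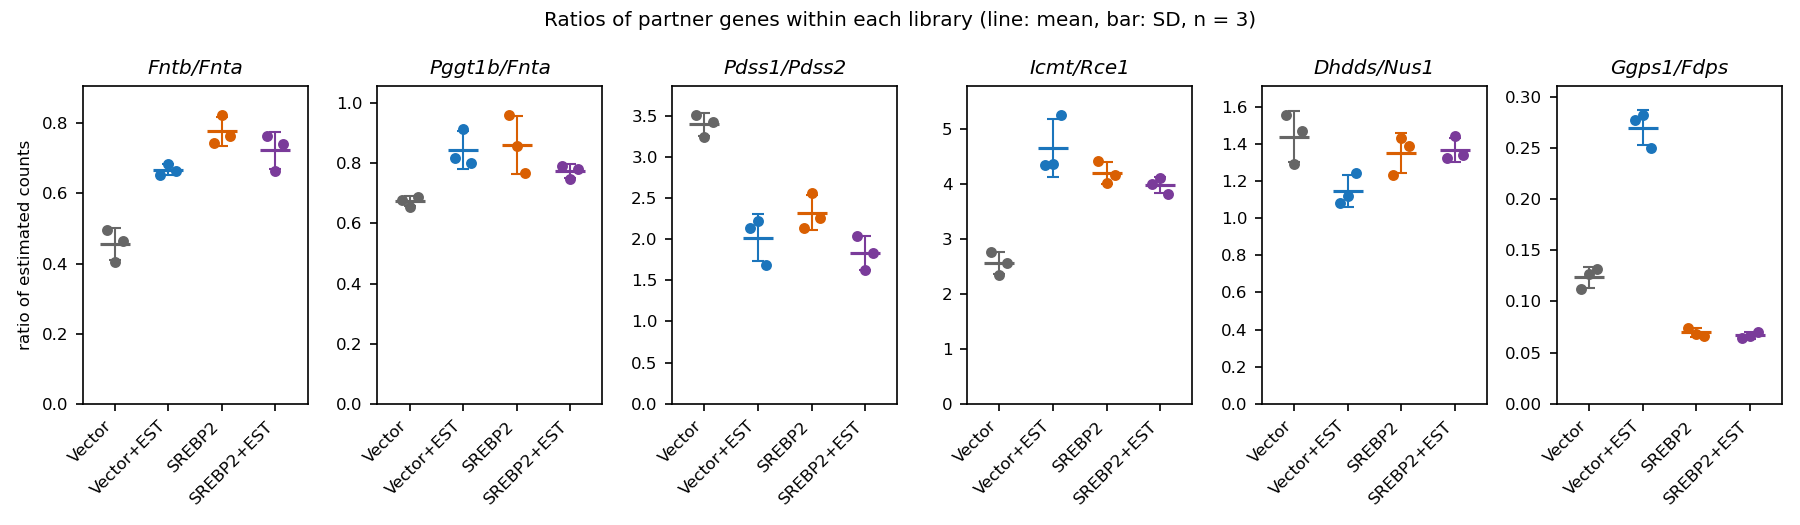
Ratio of the estimated counts of paired genes within each library, on axes that start at 0, with the group mean (line) and SD (bar, n = 3). Fntb/Fnta, Pggt1b/Fnta and Icmt/Rce1 are lowest in Vector, Pdss1/Pdss2 is highest in Vector, and Ggps1/Fdps is highest in Vector+EST (mean 0.270) and lowest in both SREBP2 groups (0.0698 and 0.0670).

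The letters upstream of the genes were read to set Dhdds and Fntb, as members with a call, beside Hmgcs1, an enzyme that rose with SREBP2. Windows of 250 bases before the start in the RefSeq promoter table (GRCm38.p6) were searched on both strands for TCACNCCAC, a form of the sterol regulatory element. They were also searched for CACGTG, which is the E-box bound by many basic helix-loop-helix factors. Further motifs were CCAAT, which is the box bound by the factor NF-Y, and AGATAA, which is a form of the GATA motif. The last was GGGCGG, the box bound by Sp1. In the windows of these genes and of the mevalonate to squalene enzymes, matches of different motifs did not overlap. Shown 5′ to 3′ on the strand of the gene, with matches that lie whole in the stretch in capitals and annotated transcribed bases left out, are 175 bases of Dhdds (chr4:134000958-134001132, minus strand), 183 bases of Fntb (chr12:76837217-76837399, plus strand) and 250 bases of Hmgcs1 (chr13:119690101-119690350, plus strand).
Dhdds: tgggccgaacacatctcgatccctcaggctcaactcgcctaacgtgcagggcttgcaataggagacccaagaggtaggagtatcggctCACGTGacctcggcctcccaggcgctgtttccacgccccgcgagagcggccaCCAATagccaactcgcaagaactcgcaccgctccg
Fntb: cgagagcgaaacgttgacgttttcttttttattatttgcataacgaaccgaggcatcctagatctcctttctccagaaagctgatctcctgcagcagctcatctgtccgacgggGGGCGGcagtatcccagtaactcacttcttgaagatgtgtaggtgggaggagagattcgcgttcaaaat
Hmgcs1: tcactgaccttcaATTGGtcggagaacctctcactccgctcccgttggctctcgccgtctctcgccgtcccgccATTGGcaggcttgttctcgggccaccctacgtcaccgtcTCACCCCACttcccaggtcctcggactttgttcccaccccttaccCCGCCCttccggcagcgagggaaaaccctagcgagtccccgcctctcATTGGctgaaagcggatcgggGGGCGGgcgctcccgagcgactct

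Windows were used for 8 of the 10 genes and for 6 of the 10 mevalonate to squalene enzymes. None was found for Fnta. Windows on chromosome 18, where Pggt1b lies, were left out for these genes but not for the shares over all windows. The sterol element was in 0 of the 8 and in 1 of the 6 (Hmgcs1), and in 1.05% of all 32851 windows. CCAAT was in 3 of the 8 (Ggps1, Dhdds and Rce1) and in 5 of the 6, and in 33.8% of all windows. CACGTG was in 2 of the 8 (Dhdds and Rce1), in 0 of the 6 and in 6.02% of all windows. AGATAA was in 0 of the 8, in 0 of the 6 and in 9.99% of all windows, and GGGCGG was in 5 of the 8, in 5 of the 6 and in 32.7%. Of the 6 matches of Dhdds, 2 are in the stretch shown, and 1 CCAAT and all 3 GGGCGG lie in or across the bases left out. A match describes the letters and is not a binding site. Rce1 and Pmvk had 2 windows each and were counted if either held the motif, whereas the shares are per window, and the GGGCGG matches of Rce1 were in its second window only. The windows of Pdss1, Pdss2, Icmt and Idi1 and the second windows of Rce1 and Pmvk held no base outside annotated transcripts or the gene itself.

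Other genes of the same branches were described from fixed lists, to be read against the 70.6% of all genes called for EST in Vector cells, 71.5% for SREBP2 without EST and 21.9% for SREBP2 under EST. The ubiquinone list was near or below these shares, and the dolichol list was below them. Of 10 other ubiquinone genes, 5 rose and 2 fell with EST in Vector cells, and 2 rose and 4 fell with SREBP2. Coq10b, a ubiquinone-binding protein, rose by 1.41 ± 0.07 with EST and 1.44 ± 0.07 with SREBP2, the largest rises of the list, while Coq5, a methyltransferase of the ring, fell by 0.44 ± 0.05 and 0.52 ± 0.05. Under EST, SREBP2 raised none of the list, and Coq6 and Coq4 fell by 0.24 ± 0.06 and 0.22 ± 0.06 (edgeR adjusted p = 0.00746 and 0.0119), the second not passing without Vector+EST library 5 (adjusted p = 0.0563). Of 10 other dolichol genes, 2 rose and 2 fell with EST, 3 rose and 2 fell with SREBP2, and none was called for SREBP2 under EST, where Dpm2 and Mpdu1 had the lowest adjusted p-values (0.0654 and 0.262). Dpm2 passed without SREBP2 library 1 (adjusted p = 0.0480) or Vector+EST library 5 (0.0384). Alg5 and Dpagt1, which load sugars onto dolichol phosphate, fell with EST by 0.84 ± 0.08 and 0.58 ± 0.07 and with SREBP2 by 0.75 ± 0.08 and 0.65 ± 0.07.

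Among 10 other prenylation genes, 4 rose and 6 fell with EST in Vector cells, 4 rose and 3 fell with SREBP2, and 3 rose and 2 fell with SREBP2 under EST. That is 10, 7 and 5 of 10 genes, beside 70.6%, 71.5% and 21.9% of all tested genes, and the 5 became 3 without Vector+EST library 1, 3 or 5 or SREBP2+EST library 1 or 2. Pde6d, a carrier of prenylated proteins, rose by 0.58 ± 0.05 and 0.59 ± 0.05 with EST and with SREBP2, and Rap1gds1, which binds small GTPases for prenylation, fell by 0.52 ± 0.05 and 0.41 ± 0.05. Pcyox1 and Pcyox1l, related to the lysosomal degradation of prenylcysteines, rose with SREBP2 under EST by 0.67 ± 0.08 and 0.52 ± 0.10. Rabggta, the α subunit of the Rab geranylgeranyl transferase, fell by 0.49 ± 0.06 with EST and by 0.33 ± 0.06 with SREBP2, and Rabggtb, its β subunit, rose by 0.24 ± 0.04 with EST. Rabggtb was also called lower with SREBP2 under EST, but only 7 of 20 alternatives kept that call, with log2 fold changes from -0.17 to -0.08 over the 20. Of the 4 other users, 3 fell with EST and with SREBP2 and 1 (Cox10) with SREBP2 under EST, where 35.5%, 33.8% and 7.94% of all tested genes were lower. The last call was lost without Vector+EST library 3 (edgeR adjusted p = 0.0741) and with the library numbers taken as a replicate block (0.179). Cox10, which farnesylates heme, fell by 0.22 ± 0.05 and 0.36 ± 0.05.

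The proteins that carry the prenyl groups were listed too. Of 22 listed geranylgeranylated proteins 19 could be tested, and 10 rose and 3 fell with EST in Vector cells, 13 rose and 3 fell with SREBP2, and 9 rose and 0 fell with SREBP2 under EST, with medians of 0.16, 0.20 and 0.12 on the log2 scale. Of all tested genes, 35.2%, 37.7% and 14.0% were higher in these comparisons and 35.5%, 33.8% and 7.94% were lower, with medians of 0.01, 0.03 and -0.00. Rap1a and Rhog, small GTPases of adhesion and the cytoskeleton, rose with EST by 0.76 ± 0.04 and 0.75 ± 0.04. Ralb rose by 0.92 ± 0.04 with SREBP2 and by 0.52 ± 0.04 under EST, and Gng2, a G protein γ subunit, by 1.11 ± 0.08 under EST. Read against the same shares, of 9 testable farnesylated proteins 2 rose and 4 fell with EST, 3 rose and 4 fell with SREBP2, and 2 rose and 1 fell under EST, where 1 was called without Vector library 4, Vector+EST library 3 or SREBP2+EST library 2. Pex19, a peroxisomal import factor, rose by 0.67 ± 0.04, 1.11 ± 0.04 and 0.49 ± 0.04, and Lmnb1, a nuclear lamin, fell by 0.71 ± 0.06 with EST and 0.78 ± 0.06 with SREBP2.

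**Figure D4:**
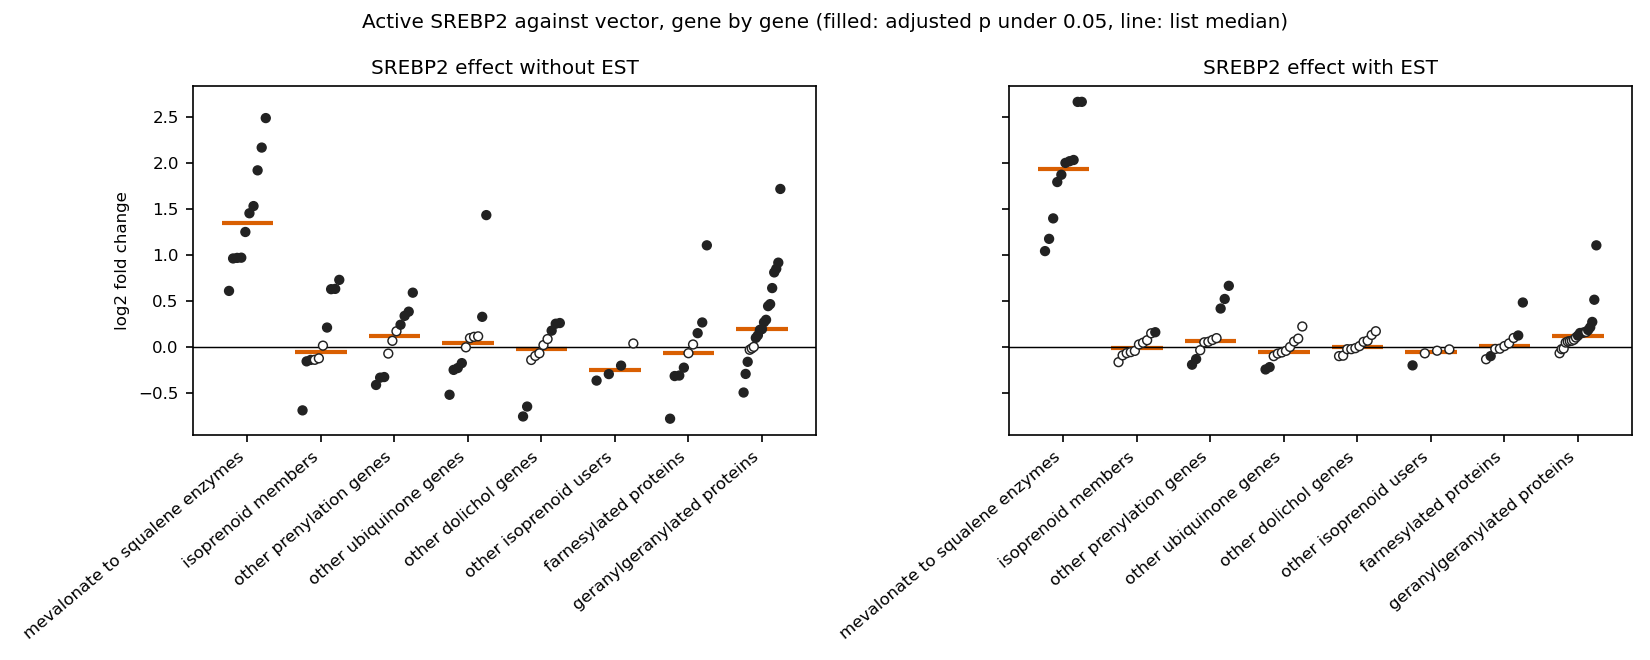
Log2 fold change of active SREBP2 against empty virus for each tested gene of 8 lists, without EST (left) and with EST (right); filled points have an edgeR adjusted p under 0.05 and the line is the list median. The mevalonate to squalene enzymes lie from 0.61 to 2.67 in both panels, and the 10 isoprenoid genes from -0.69 to 0.73 on the left and from -0.16 to 0.16 on the right.

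Levels were set against each other per kilobase of transcript. Pdss2 was lowest of the 10 in all 4 groups, whether the median or the longest protein-coding transcript gave the length, and no other gene's libraries overlapped its own. The rest of the order depended on that choice. By the median length, Dhdds was first in Vector and Ggps1 first in the other 3 groups, and by the longest Fnta was first in all 4 groups. By the median length, neighbours whose libraries overlapped were Ggps1 and Coq2 in Vector, Pggt1b and Dhdds in SREBP2, Rce1 and Icmt in Vector+EST, and Fntb and Rce1 in all groups but Vector.

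As a description, the tested gene whose log2 CPM ran most nearly parallel to Icmt over the 12 libraries was Lysmd1 (Pearson r = 0.995), and it was Atg2a for Fntb (0.988), Polr3a for Pdss1 (0.986) and Atf4 for Dhdds (0.983). For Pggt1b it was Arid2 (0.958), for Coq2 Atg16l1 (0.957), for Fnta Pecr (0.932), for Pdss2 Itgb1bp1 (0.858) and for Rce1 Tmem254b (0.851). The 12 points fall into 4 groups, and each gene was the best of 11176 compared. In these bulk samples, fewer cells of a type and less RNA per cell cannot be told apart.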

How the data were processed

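Polyadenylated RNA of 12 libraries of G1E-ER4 cells, 3 in each of 4 groups, was compared. The authors deposited estimated counts per gene, not normalized, of which 66.5% were whole numbers. The submitters' processing notes name HISAT2 2.0.4, Bowtie2 2.2.5, RSEM 1.2.12, DESeq2 1.4.5 and GRCm38.p6. A second deposited table holds the authors' own fold changes and p-values and was not used. Groups were read from the titles. A library's number is the one in the header of the table, and it does not match the title's replicate number for every library.

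Counts were rounded to whole numbers, filtered with filterByExpr (11177 of 17210 genes kept), scaled by TMM (trimmed mean of M values) and tested with edgeR 4.0.16 (quasi-likelihood F-test, R 4.3.3) in one fit over all 12 libraries with a mean per group. P-values were adjusted by Benjamini-Hochberg over all tested genes, with 0.05 as the threshold, and standard errors were derived as |log2 fold change| over √F. The 5 comparisons were EST in Vector cells, SREBP2 without EST, SREBP2 with EST, EST in SREBP2 cells, and their interaction. Alternatives were DESeq2 1.42.0, other scaling, other filters, only the libraries compared, a replicate block and leaving out libraries.

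The 10 genes and all lists were chosen with earlier results of these data known, and the gene ratios and promoter motifs were added after the data were seen. Beside the 10, the text names, of each other list, the 2 genes with the lowest adjusted p in each of the first 3 comparisons, plus Fdps, Idi1, Nus1, Rabggta, Rabggtb, Srebf2 and Gata1, and for each of the 10 the gene with the highest correlation. Some genes that this rule picks are not reported here. Genes that overlap one of the 10 were named after their values were seen. Positions come from RefSeq and exon overlaps and lengths from GENCODE M21, both on GRCm38.p6. Simulated counts for 11177 genes, drawn around the mean of each gene over all 12 libraries, had 200 genes changed in the Vector+EST libraries only. In the data 70.6% of genes were called for EST in Vector cells, so the recovered shares do not give the power of that comparison. Of 50 changed 1.2-fold 58% were recovered, of 50 changed 1.5-fold 74%, of 50 changed 2-fold 86% and of 50 changed 4-fold 100%, with 9 false calls of 168. The floor of 3 counts was far below every count of the 10 genes. Amplified reads are not independent molecules, so counting error understates the true error.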

Additional observations from a re-analysis of the deposited data

Results flagged for a closer look

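The response to EST differed between SREBP2 and Vector cells for 6 of the 10 genes, by the interaction term in edgeR. The difference, SREBP2 cells minus Vector cells on the log2 scale, was -0.60 ± 0.08 for Ggps1 (adjusted p = 1.17e-05), -0.56 ± 0.09 for Fntb (adjusted p = 3.73e-05), -0.38 ± 0.09 for Pggt1b (adjusted p = 0.00146) and -0.80 ± 0.06 for Icmt (adjusted p = 1.24e-08). It was 0.60 ± 0.12 for Pdss1 (adjusted p = 0.000626) and 0.32 ± 0.07 for Dhdds (adjusted p = 0.00101). Of all tested genes, 59.0% passed the same test. The interaction for Pdss2, Coq2, Fnta and Rce1 did not pass, with adjusted p-values from 0.205 to 0.505.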

How the results depend on the processing

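The number of the 10 genes called stayed within 6 to 7 for EST in Vector cells, 6 to 8 for SREBP2 without EST and at 6 for the interaction under the alternatives run, and it was 0 for EST in SREBP2 cells in each of them. For SREBP2 with EST it was 1 (Dhdds, but Pggt1b under DESeq2, RLE size factors and library totals), but 2 with only the libraries compared (Dhdds and Pggt1b). It was also 2 without both libraries that lay nearer to the other group, and between 0 and 2 when each library was left out. It was 0 without Vector+EST library 1, 3 or 5 or SREBP2+EST library 1 or 2, and 2 without SREBP2 library 1 or 5. Over all genes, those called for EST in SREBP2 cells numbered 0, but 12 under DESeq2, 22 with no filter and 8 with only the libraries compared. They numbered between 0 and 18 when each library was left out (18 without Vector+EST library 5). Without both libraries that lay nearer to the other group, they numbered 1567. Of the genes called for SREBP2 with EST, 63.7% were higher. The share was 42.2% under library totals only, 55.8% under DESeq2 and 83.2% with the replicate block described next. The header numbers 1 and 5 recur in every group, but same-numbered libraries did not deviate together (correlations of their deviations between -0.17 and 0.07), so the numbers were not taken to pair samples. With them as a replicate block, SREBP2 with EST called 0 of the 10 genes and 1208 of all genes (2448 without it). By list, it called 0 of the ubiquinone genes, 0 of the other isoprenoid users, 2 of the prenylation, 1 of the farnesylated and 5 of the geranylgeranylated list. Fnta lost its call for SREBP2 without EST under the block (log2 fold change -0.09, edgeR adjusted p = 0.178).

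For the 10 genes and Nus1, signs turned only for differences that were not called and lay near 0. For EST in Vector cells Pdss2 read -0.012 with at least 10 counts in every library and -0.014 without both libraries that lay nearer to the other group. With each library left out, Pdss2 read from -0.024 to 0.060. In the same comparison Nus1 read 0.0048 with the replicate block. For SREBP2 without EST, Rce1 read -0.0102 with DESeq2, -0.0103 with RLE size factors, -0.013 with at least 10 counts, -0.012 with the block, -0.041 with library totals, and from -0.029 to 0.058 with each library left out. For SREBP2 with EST, Ggps1 read -0.016 with library totals and from -0.022 to 0.059 with each library left out, and Pdss1 0.036 with the block and from -0.18 to 0.0048 with each library left out. For EST in SREBP2 cells, Coq2 read 0.0032 and Fnta -0.0063 with the block, and Rce1 read -0.016 without both libraries that lay nearer to the other group. With each library left out in that comparison, Ggps1 ran from -0.040 to 0.039, Coq2 from -0.090 to 0.00069 and Rce1 from -0.013 to 0.074. The cause of these changes was not tested. Pdss2 had the fewest counts of the 10 genes.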
